A study of Arabidopsis thaliana with 16 samples.

Results

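The response to cycloheximide (CHX) was measured in Arabidopsis roots that were also given the synthetic auxin 1-naphthaleneacetic acid (NAA). The comparison takes the 4 arrays of the groups NAA+CHX and NAA+DEX+CHX against the 4 arrays of the groups NAA and NAA+DEX, with DEX (dexamethasone) state held as a block, which is 8 of the 16 arrays of the series. All plants, the controls included, were gPUCHI:GR puchi-1 seedlings: they lack the normal AP2/ERF transcription factor PUCHI and carry PUCHI joined to the glucocorticoid receptor (GR) under PUCHI's own regulatory region, so that the fusion protein enters nuclei when DEX is given. Seedlings were 5 days old, grown in continuous light, and treated for 4 hours with NAA at 1 µM, DEX at 2 µM, CHX at 10 µM or their combinations, and the mock group received 0.1% DMSO. Each of the 8 groups holds 2 arrays from independent sets of mRNA. The labels do not say whether these came from separate plates of seedlings, so the p-values measure the spread between these samples. No group lacks the transgene or the mutation, and every statement is about roots of this one line.

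CHX stops elongation by cytosolic ribosomes, so a transcript that still responds to a signal under CHX does so without newly made protein. Auxin acts through a receptor complex that marks Aux/IAA repressors for breakdown, which frees auxin response factors at the primary auxin genes, among them GH3, Aux/IAA and LBD genes. CHX is also known to raise many early-response transcripts by itself, through the loss of short-lived repressors and slower decay of some mRNAs.

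Each array gave one linear intensity per probe set, scaled by the authors so that the trimmed mean was 500 on every array. Changes are differences of mean log2(intensity + 16) between the arrays with and without CHX, and a probe set was called when its limma p-value, adjusted by Benjamini-Hochberg over all 22746 probe sets, was under 0.05. The added 16 makes changes of dim genes smaller than their intensity ratios. With this scaling a loss or gain of total mRNA per root cannot be seen, and in whole roots fewer cells of a type and less RNA per cell cannot be told apart. Arrays of the same group correlated at 0.983 to 0.989, and auxin-treated arrays with and without CHX at 0.790 to 0.798. The 3′ to 5′ signal ratio of the GAPDH control overlapped between the 4 arrays without CHX (0.877 to 1.52) and the 4 with it (0.957 to 1.57). The same ratio of the actin control was 20.6 to 33.5 without CHX and 15.3 to 22.3 with it, so that 3 of the 4 CHX arrays lay under all 4 arrays without CHX, and its part in the results was not tested. Here and below, a gene counts as measured if a probe set carries its name alone, and 8730 of the 22746 probe sets carry no name. Genes not measured in this sense may still be on the array. Of 17 root markers looked for, 4 were measured (EXPA7, EXPA18, GSO1 and CR4). Of 14 green tissue markers, 1 was measured, RCA (Rubisco activase), at intensities of 309 to 719 over the 16 arrays.

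CHX changed most of the auxin-treated root transcriptome. It raised 6627 probe sets (29.1% of those tested) and lowered 7994 (35.1%), 14621 in all (64.3%). Rises of at least 2-fold numbered 3536 (15.5%) and falls of that size 3874 (17.0%). At 8-fold the balance was the other way, with 954 rises against 289 falls, and the largest rise was 9.47 on the log2 scale, while the probe set that fell most, one with no named gene here, changed by -7.57. All 4 CHX arrays lay above all 4 arrays without CHX for 6070 probe sets (26.7%) and below them for 7462 (32.8%). Of 13355 genes represented by a probe set with 1 gene name, 3780 rose (28.3%) and 4300 fell (32.2%), and their median change was 0.02.

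Falls were the more frequent calls among bright probe sets and rises among dim ones. Probe sets were sorted by their mean intensity on the 4 mock and DEX arrays, whose values do not enter the change, and intensities of different probe sets are not amounts of transcript. Among the 3430 probe sets at 1000 or more, 76.2% fell and 15.98% rose, with a median change of -0.92. Between 200 and 1000 the falls were still in the majority, 50.5% of 7478 against 31.5% rises (median -0.25). Between 50 and 200 the rises led, 41.1% of 4703 against 27.2% falls (median 0.15), and among the 7135 probe sets under 50 only 4.63% fell while 25.05% rose. A dim probe set can fall little on this scale, and its values lie near background.

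**Figure D1:**
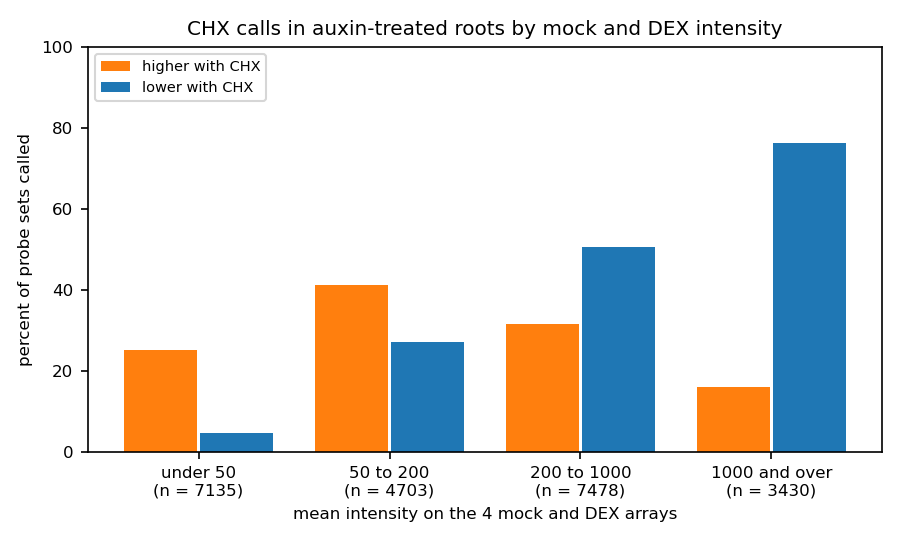
Percent of probe sets called higher (orange) or lower (blue) with CHX in auxin-treated roots, grouped on the x axis by mean intensity on the 4 mock and DEX arrays. The share that fell grows from 4.63% under an intensity of 50 to 76.2% at 1000 and over.

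The 15 named genes with the largest rises went from intensities of at most 101 on every array without CHX to at least 5765 on every array with it. AT2G23270 stood at 7.09 and 45.3 with NAA, 16.6 and 11.2 with NAA+DEX, 25202 and 22532 with NAA+CHX, and 22860.0 and 24329 with NAA+DEX+CHX, a change of 9.47 ± 0.22 (SE, limma adjusted p 3.49e-16). AT3G54520 stood at 2.33 and 11.3 with NAA, 10.8 and 15.4 with NAA+DEX, 11728 and 15699 with NAA+CHX, and 15471 and 15795 with NAA+DEX+CHX, and it changed by 9.16 ± 0.12 (SE, limma adjusted p 5.55e-19). AT1G10875 stood at 17.1 and 1.25 with NAA, 11.9 and 1.25 with NAA+DEX, 10593 and 11664 with NAA+CHX, and 8273 and 11078 with NAA+DEX+CHX, a change of 8.82 ± 0.18 (SE, limma adjusted p 4.92e-17). The order of such genes is set by the added 16: with 1 added in its place the change was 10.46 for AT2G23270, under those of AT3G54520 (10.59), AT1G10875 (10.78) and the beta-glucosidase gene BGLU27 (11.03). In none of the 3 genes did the arrays with and without CHX overlap, and the annotation used here gives them no name or function.

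BGLU27, a member of the beta-glucosidase family, had 29.1 and 1.10 with NAA, 0.60 and 4.21 with NAA+DEX, 9671 and 9913 with NAA+CHX, and 10490.0 and 10054 with NAA+DEX+CHX, and rose by 8.80 ± 0.22 (SE, limma adjusted p 6.78e-16). Its relatives BGLU31 and BGLU32, which are neighbours on the chromosome, were between 0.74 and 7.59 without CHX and between 2212 and 2915 with it (change 7.11) and between 0.45 and 13.2 without CHX and between 2917 and 3757 with it (change 7.40). Of 20 BGLU genes measured 10 rose and none fell. Over all named genes 28.3% rose and 32.2% fell, which is the background for each count of list members that follows. DLAH, which encodes a DAD1-like lipase, was between 43.9 and 101 without CHX and between 17334 and 20392 with it, and NDB4, an NAD(P)H dehydrogenase of the outer face of the inner mitochondrial membrane, was between 5.28 and 35.4 without CHX and between 7439 and 8102 with it. The changes of DLAH and NDB4 were 7.74 ± 0.11 (SE, limma adjusted p 1.55e-18) and 7.80 ± 0.14 (SE, limma adjusted p 1.45e-17). The other 9 of the 15 (AT1G74870, AT2G04050, AT1G22810, AT5G52760, AT1G14550, AT2G37810, AT1G56060, AT1G26380 and AT4G28460) carry only locus numbers. Their changes ran from 7.73 for AT4G28460 to 8.43 for AT1G74870.

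The 15 named genes with the largest falls were all at 1212 or more on every auxin-treated array without CHX, and falls of this size on the log2(intensity + 16) scale need a bright start. AT2G19970 stood at 7336 and 7252 with NAA, 9040.1 and 8102 with NAA+DEX, 32.1 and 46.0 with NAA+CHX, and 64.5 and 36.6 with NAA+DEX+CHX, and had the largest fall of a named gene, with a change of -7.05 ± 0.17 (SE, limma adjusted p 5.37e-16). AT4G23670 stood at 9122 and 11895 with NAA, 11262 and 11656 with NAA+DEX, 135 and 87.4 with NAA+CHX, and 121 and 91.0 with NAA+DEX+CHX (change -6.47 ± 0.14 (SE, limma adjusted p 1.08e-16)). AT1G13930, at 6263 and 6075 with NAA, 6124 and 5769.5 with NAA+DEX, 51.0 and 72.3 with NAA+CHX, and 71.7 and 60.3 with NAA+DEX+CHX, changed by -6.26 ± 0.10 (SE, limma adjusted p 3.46e-18). All 3 were at 135 or less on every CHX array, with no overlap.

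LCR68 and LCR69, which encode small cysteine-rich proteins of the defensin-like class, were among the falls. LCR68 was between 9489.6 and 11960.0 without CHX and between 170.3 and 237 with it, a change of -5.61 ± 0.11 (SE, limma adjusted p 4.84e-17), and LCR69 was between 6386 and 8256 without CHX and between 104 and 194 with it, a change of -5.49 ± 0.10 (SE, limma adjusted p 2.16e-17). PR-1-LIKE, a relative of the secreted pathogenesis-related protein 1, stood at 1254 and 1212 with NAA, 1744 and 1583 with NAA+DEX, 22.5 and 21.4 with NAA+CHX, and 33.8 and 1.38 with NAA+DEX+CHX, and changed by -5.44 ± 0.24 (SE, limma adjusted p 1.46e-12). On the mock and DEX arrays PR-1-LIKE lay between 246 and 315, so its fall in auxin-treated roots began from a level above that of roots without auxin, and AT2G19970, within 2 positions of it on the chromosome, had the same order (1430 to 1778 without NAA or CHX). RALFL32, one of the RALF family of secreted peptide signals, was between 1871 and 2784 without CHX and between 60.9 and 102 with it and changed by -4.56 ± 0.11 (SE, limma adjusted p 3.58e-16). Of 10 RALF genes 5 fell and 1 rose, which was RALFL33 (1.67), where 32.2% of all named genes fell.

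**Figure D2:**
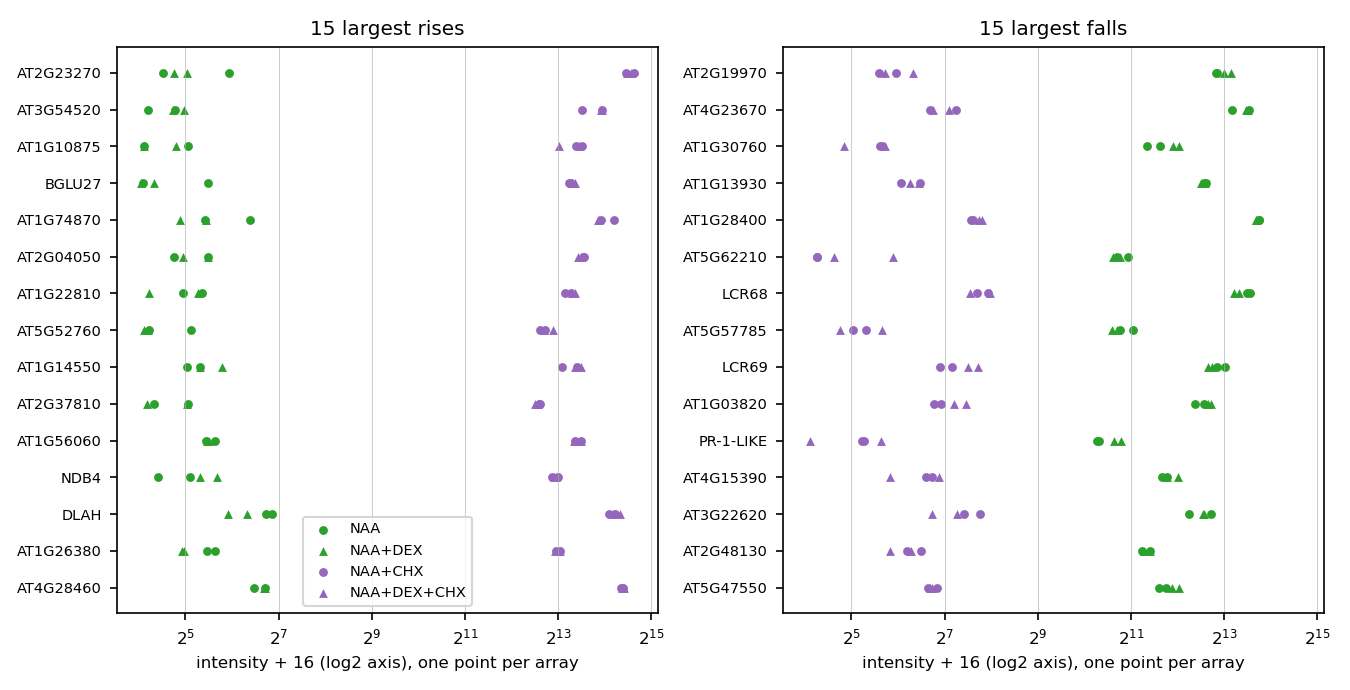
Array values of the 15 named genes with the largest rises (left) and falls (right), as intensity + 16 on a log2 axis, one point per array, green without CHX and purple with CHX, circles without DEX and triangles with DEX. The genes were picked among those whose 4 CHX arrays all lay beyond the other 4, so the green and purple points are apart by choice.

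Genes with large changes lay close to each other on the chromosomes more often than all genes lay close to them, though most had no such neighbour. Genes were taken in chromosome order from the TAIR10.1 gene table, using 12140 genes whose probe set is not marked as shared between transcripts. Of 516 genes that rose at least 8-fold, 100 (19.4%) had another such gene within 2 positions, while 7.72% of all 12140 genes had one. Of 137 genes that fell at least 8-fold, 11 (8.03%) had another such gene within 2 positions, against 2.15% of all genes. Neighbours can be related copies, and how far the probe sets of such copies share signal was not tested. The gene bodies of both sets were also shorter than most, with a median length of 1865 bases for the rises and 1564 for the falls against 2117 for all.

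The longest run was on chromosome 5 and was picked out after its values were seen. From AT5G52670 to AT5G52760 there are 10 protein-coding genes, 8 of which were measured, and all 8 rose, by 3.54 to 8.31. AT5G52760 stood at 2.65 and 19.0 with NAA, 1.39 and 2.30 with NAA+DEX, 6206 and 6678 with NAA+CHX, and 7518 and 6614 with NAA+DEX+CHX. Without auxin the changes of the same 8 genes were between 3.75 and 8.29, on arrays whose values do not enter the changes with auxin. LCR68 and LCR69 (AT2G02130 and AT2G02100), with AT2G02120 between them (change -3.09), were the longest run of falls.

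Transcripts of the translation apparatus fell almost without exception. This and the other lists that go by locus number were drawn up from general knowledge of the Arabidopsis families, since the annotation has no functions. They were written with earlier results of these data known, so their counts describe the lists and are not a blind test. Of 76 large-subunit ribosomal protein genes 73 fell and none rose (median -1.87), and of 46 small-subunit genes 42 fell and 1 rose (median -1.74), where 32.2% of all named genes fell. Among probe sets at 1000 or more on the mock and DEX arrays the share that fell was 76.2% (median -0.92). The lists were not compared with genes of like brightness. AT5G39850, from the small-subunit list, stood at 2875 and 3081 with NAA, 2946 and 2915 with NAA+DEX, 70.6 and 134 with NAA+CHX, and 101 and 131 with NAA+DEX+CHX, a change of -4.60 ± 0.14 (SE, limma adjusted p 1.43e-14). AT3G06680, from the large-subunit list, was between 7993 and 8893 without CHX and between 906 and 988 with it, a change of -3.11 ± 0.07 (SE, limma adjusted p 2.45e-16). The small-subunit list's 1 rise was AT5G43640, at between 12.9 and 41.0 without CHX and between 46.6 and 87.4 with it (1.08), which is close to background.

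The initiation helicase EIF4A-2 stood at 4009 and 3906 with NAA, 4419 and 3915 with NAA+DEX, 1361 and 1432 with NAA+CHX, and 1490.2 and 1456 with NAA+DEX+CHX, a change of -1.49 ± 0.07 (SE, limma adjusted p 3.36e-12), and all 3 measured translation factors fell. All 16 measured genes of ribosome biogenesis fell (median -1.36), with no overlap of arrays in any of them (32.8% of all probe sets were so, in this direction). PRH75, a nucleolar RNA helicase, was between 3729 and 4255 without CHX and between 969 and 1148 with it, with a change of -1.92 ± 0.09 (SE, limma adjusted p 2.36e-12). In roots without auxin CHX changed the same genes less, with a median of -0.73 and 12 of 16 falling (34.4% of all probe sets fell there), and the difference between auxin-treated and untreated roots was called in all 16, each more negative with auxin (24.3% of all probe sets were called in that difference, 12.5% as more negative). On the mock and DEX arrays AT3G03920 of this list was at 2982 to 3288, and with NAA or NAA+DEX at 4893 to 5512. On CHX arrays it was at 899 to 972 without auxin and 958 to 1080 with it. AT3G22660 had the same order: 802 to 1193, 2094 to 2664.5, 217 to 292 and 265 to 283. The called difference therefore includes the NAA change without CHX. For the ribosomal proteins the medians without auxin were -1.68 (large) and -1.67 (small), and 16 of 76 and 7 of 46 differences were called, all of them more negative with auxin.

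Subunits of other large complexes that every cell uses moved the same way by smaller amounts. All 9 measured proteasome genes fell, with changes of -1.06 to -0.33 (median -0.75). Of all probe sets at 1000 or more on the mock and DEX arrays, 76.2% fell, with a median of -0.92. Whether genes of these complexes fell more than others of like brightness was not tested. RPN12a, a lid subunit, was between 3047 and 3797 without CHX and between 1633 and 1900.2 with it (change -1.06 ± 0.07 (SE, limma adjusted p 5.12e-10)). Of 8 measured subunits of RNA polymerases II and III, 7 fell and none rose. NRPB12, which the nuclear polymerases share, stood at 2953 and 3506 with NAA, 3049 and 3194 with NAA+DEX, 1162 and 1196 with NAA+CHX, and 1224 and 1174 with NAA+DEX+CHX (change -1.40 ± 0.07 (SE, limma adjusted p 5.78e-12)). Of 7 genes of mRNA decay and splicing, 4 fell, all of them Sm-like LSM genes, LSM3A the most, at between 671 and 828 without CHX and between 101 and 216 with it (-2.18). UPF3, of nonsense-mediated decay, rose by 0.42 ± 0.10 (SE, limma adjusted p 0.00101).

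Transcripts made in plastids also fell. Of 68 plastid-encoded probe sets 53 fell and 1 rose (median -0.78), where 35.1% of all probe sets fell. The difference between the CHX changes with and without auxin was called for none of the 68 (24.3% of all probe sets were called). For rbcL, the large subunit of Rubisco, intensities were between 578 and 753 without CHX and between 112 and 177 with it, a change of -2.14 ± 0.11 (SE, limma adjusted p 1.65e-11). The mRNA of matK, the plastid intron maturase, was between 958 and 1800.1 without CHX and between 303 and 386 with it (-1.97). The 1 rise was petN at 0.52, which was not called under quantile normalization (0.26, limma adjusted p 0.316) or when any of 7 of the 8 auxin-treated arrays was dropped. From the green tissue list 8 nuclear genes of green tissue were measured, of which 5 fell and 2 rose, and their summed intensity was 1184 to 1447 without CHX and 1046 to 1292 with it, ranges that overlap. The array preparation primes on poly(A) tails, which most plastid transcripts lack, so these intensities are not plastid RNA amounts.

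Regulators of rapid stress and defence responses made up the opposite pole. All 13 measured genes of the rapid stress list rose, with a median of 2.59 and changes from 0.58 to 8.32, and in 12 of them the arrays did not overlap (26.7% of all probe sets were so, in this direction). STZ, a zinc-finger repressor also called ZAT10, stood at 295 and 379 with NAA, 360.1 and 349 with NAA+DEX, 21940.0 and 22788 with NAA+CHX, and 24352 and 21437 with NAA+DEX+CHX, a change of 5.97 ± 0.10 (SE, limma adjusted p 6.74e-18). CML37, one of the calmodulin-like calcium sensors, went from near background to among the brighter probe sets, at 25.2 and 30.0 with NAA, 45.3 and 23.0 with NAA+DEX, 6963 and 7936 with NAA+CHX, and 8895 and 7908 with NAA+DEX+CHX (7.42 ± 0.14 (SE, limma adjusted p 3.55e-17)). Its relative CML38 was between 53.5 and 83.9 without CHX and between 6608 and 8265 with it (6.53), and CML42 between 265 and 375 without CHX and between 10952 and 12831 with it (5.23). Of 7 calmodulin-like genes 5 rose and none fell.

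Of 7 WRKY transcription factor genes 6 rose and none fell, where 28.3% of all named genes rose. WRKY53 stood at 164 and 183 with NAA, 152 and 149.7 with NAA+DEX, 6237 and 6207 with NAA+CHX, and 7966 and 6837 with NAA+DEX+CHX (5.26 ± 0.08 (SE, limma adjusted p 1.05e-18)), and WRKY22 was between 93.9 and 137 without CHX and between 2416 and 2665 with it (4.29). WRKY6 started higher and rose less, between 854 and 1038 without CHX and between 7464 and 8312 with it (3.01). Of 9 U-box ubiquitin ligase genes 7 rose and none fell, against the same background of 28.3%. The closely related PUB22, PUB23 and PUB24, known for damping immune responses, were the 3 largest. PUB24 stood at 85.4 and 75.1 with NAA, 51.8 and 73.8 with NAA+DEX, 4769.5 and 4563 with NAA+CHX, and 4578 and 4447 with NAA+DEX+CHX, a change of 5.73 ± 0.12 (SE, limma adjusted p 7.27e-17). PUB22 was between 497 and 546 without CHX and between 5568 and 6165 with it (3.47) and PUB23 between 1084 and 1215 without CHX and between 11186 and 12361 with it (3.33).

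Ubiquitin-conjugating enzymes went the other way from these ligases, with 8 of 12 lower and 1 higher, where 32.2% of all named genes fell. UBC20, a mitotic conjugating enzyme, stood at 1325 and 1383 with NAA, 1634 and 1587 with NAA+DEX, 227 and 214 with NAA+CHX, and 274 and 232 with NAA+DEX+CHX (-2.57 ± 0.09 (SE, limma adjusted p 7.76e-14)), and its paralog UBC19 was between 872 and 1014 without CHX and between 210.2 and 280.2 with it (-1.82). UBC16 was the 1 that rose, by 1.07. The 3 mitotic Aurora kinases all fell: AUR1 was between 791 and 1112 without CHX and between 296 and 347 with it, a change of -1.49 ± 0.08 (SE, limma adjusted p 2.05e-11), and AUR2 and AUR3 changed by -1.36 and -1.01. Of 12 histone genes, by contrast, 9 rose and 1 fell, where 28.3% of all named genes rose. AT1G06760 of that list was between 3636 and 3915 without CHX and between 9315 and 11177 with it (1.45 ± 0.07 (SE, limma adjusted p 4.71e-12)). The 1 that fell was HTR12, the histone H3 variant of centromeres, at between 213 and 244 without CHX and between 108 and 151 with it (-0.79 ± 0.13 (SE, limma adjusted p 3.87e-05)).

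Among bZIP factors 6 of 14 rose and 2 fell (28.3% and 32.2% of all named genes). BZIP60, a factor of the unfolded protein response, stood at 789 and 859 with NAA, 856 and 933 with NAA+DEX, 19666 and 21348 with NAA+CHX, and 18678 and 20956 with NAA+DEX+CHX, a change of 4.53 ± 0.08 (SE, limma adjusted p 5.25e-18). BZIP61 was between 253 and 304 without CHX and between 2598 and 2846 with it (3.20) and BZIP53 between 3039.8 and 3504 without CHX and between 9961 and 12793 with it (1.78). bZIP44 differed from these: with auxin it changed by -0.95 ± 0.09 (SE, limma adjusted p 3.58e-08), without auxin its CHX change was 0.76, and the difference of -1.70 ± 0.12 (SE, limma adjusted p 2.67e-08) was called.

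Members of the ATG8 family, the ubiquitin-like proteins that coat autophagosomes, moved apart. ATG8E stood at 625 and 677 with NAA, 582 and 643 with NAA+DEX, 5708 and 5971 with NAA+CHX, and 4869.9 and 6205 with NAA+DEX+CHX, and rose by 3.13 ± 0.10 (SE, limma adjusted p 2.27e-14). ATG8B was between 426 and 591 without CHX and between 89.0 and 106 with it and changed by -2.25 ± 0.14 (SE, limma adjusted p 2.96e-10), and ATG8D, ATG8F and ATG8G also fell (-1.11, -0.90 and -1.99). For ATG8G the CHX change without NAA was -0.17, and the difference between roots with and without auxin was -1.82 ± 0.14 (SE, limma adjusted p 3.82e-08). ATG8G was at 351 to 414 on the mock and DEX arrays and at 1282 to 1674 with NAA or NAA+DEX. On CHX arrays it was at 316 to 343 without auxin and 311 to 417 with it. Of 10 autophagy genes 2 rose and 5 fell in all.

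**Figure D3:**
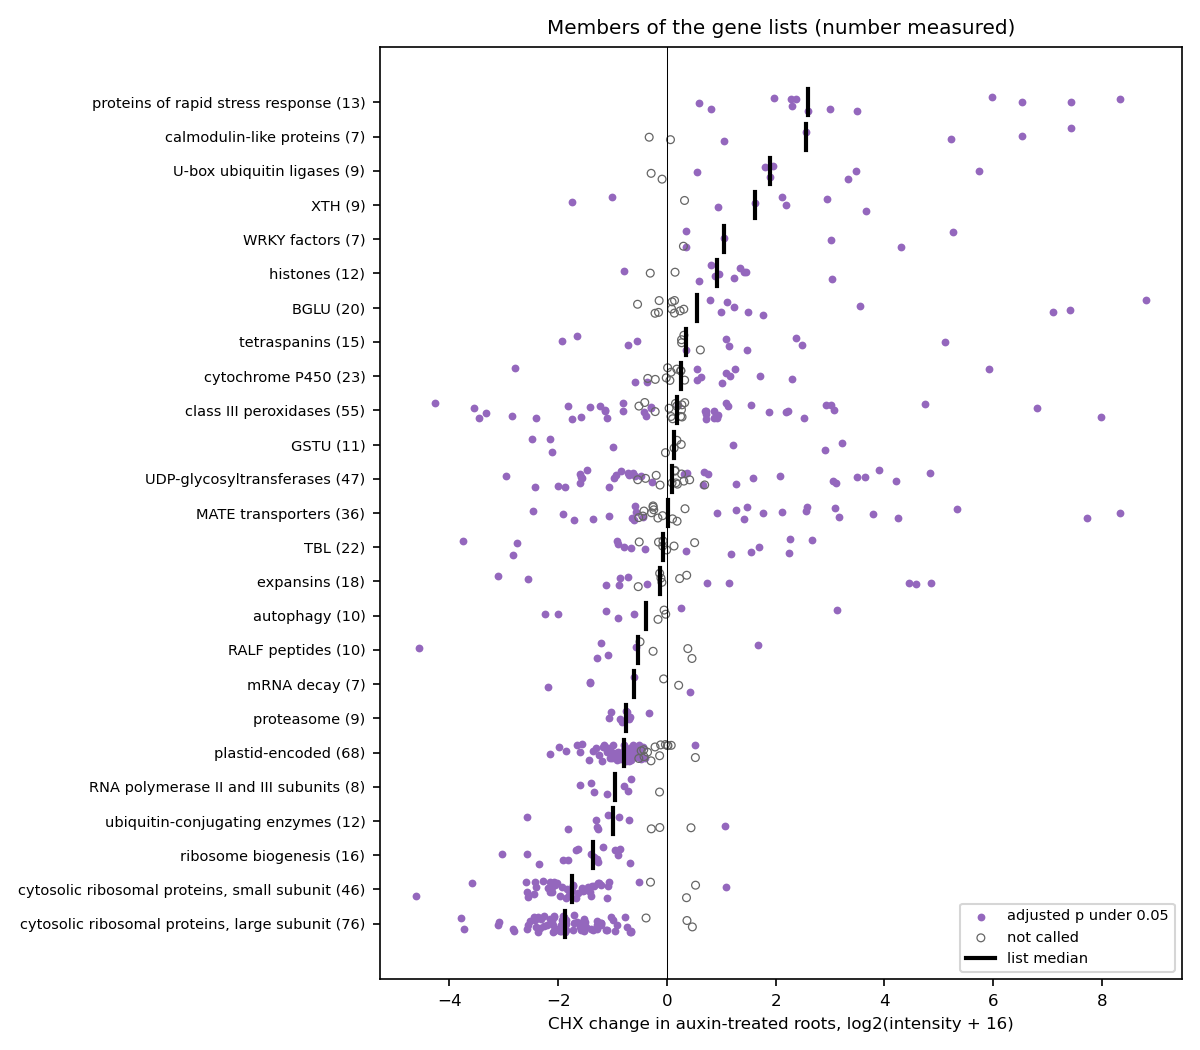
CHX change in auxin-treated roots, on the log2(intensity + 16) scale, of each measured member of 25 gene lists, with the number of members in brackets, filled points called at adjusted p under 0.05 and a black bar at the list median. The list medians run from -1.87 for large-subunit ribosomal proteins to 2.59 for the rapid stress list, and most enzyme families lie on both sides of 0.

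Families of the cell wall held genes with large changes in both directions, and for expansins and TBL genes the counts of rises and falls were near the background of 28.3% and 32.2% of all named genes. Of 9 xyloglucan endotransglucosylase/hydrolase (XTH) genes, whose products cut and rejoin wall xyloglucan, 6 rose and 2 fell. XTH18 stood at 1681 and 1748 with NAA, 1502 and 1823 with NAA+DEX, 18479 and 22930.0 with NAA+CHX, and 21825 and 22996 with NAA+DEX+CHX (3.66 ± 0.10 (SE, limma adjusted p 2.00e-15)), and XTH16 and XTH19 changed by 2.93 and 2.12. XTH32 fell, at between 152 and 233 without CHX and between 31.5 and 75.6 with it (-1.74). Of 18 expansin genes, which loosen walls, 5 rose and 7 fell. The alpha-expansin EXPA4 stood at 11358 and 12178 with NAA, 13284 and 12182 with NAA+DEX, 1340.0 and 1204 with NAA+CHX, and 1639 and 1456 with NAA+DEX+CHX, a change of -3.11 ± 0.07 (SE, limma adjusted p 3.88e-16). The expansin-like genes EXLA2 and EXLA3 rose together: EXLA2 was between 12.1 and 47.1 without CHX and between 1207 and 1427 with it (4.85), and EXLA3 was between 114 and 172 without CHX and between 3109 and 4002 with it (4.58).

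CSLC04, a synthase of the xyloglucan backbone, was between 516 and 812 without CHX and between 5598 and 6427 with it (3.06 ± 0.09 (SE, limma adjusted p 7.72e-15)), while CSLC5 of the same family fell (-1.71). Of 22 TBL genes, a family of wall polysaccharide acetyltransferases, 7 rose and 8 fell, from TBL36 at between 3115 and 3999 without CHX and between 226 and 265 with it (-3.75) to TBL21 at between 65.2 and 119.8 without CHX and between 575 and 662 with it (2.66). Of 15 tetraspanin genes 7 rose and 4 fell. TET8, a tetraspanin found on extracellular vesicles, was between 1264 and 1643 without CHX and between 7557 and 9425 with it (2.48), and TET9 was between 20.5 and 36.9 without CHX and between 1344 and 1603 with it (5.11).

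Families of detoxification and small-molecule enzymes and transporters also held large changes in both directions, and for UDP-glycosyltransferases, glutathione transferases and serine carboxypeptidase-like genes the counts lay near the 28.3% of all named genes that rose and the 32.2% that fell. Of 47 UDP-glycosyltransferase genes 15 rose and 19 fell. UGT84B1, which conjugates the auxin indole-3-acetic acid to glucose, stood at 1.31 and 4.51 with NAA, 2.58 and 1.01 with NAA+DEX, 593 and 529.5 with NAA+CHX, and 434 and 492 with NAA+DEX+CHX, a change of 4.84 ± 0.20 (SE, limma adjusted p 5.77e-13). UGT73B4 was between 474 and 519 without CHX and between 7309 and 8605 with it (3.90). UGT78D1 and UGT84A1, of flavonol and hydroxycinnamate conjugation, changed by -2.42 and -2.00. Of 11 tau-class glutathione transferase genes 3 rose, led by GSTU25 at between 1947 and 2614 without CHX and between 21197 and 22347 with it (3.22), and 4 fell, led by GSTU16 (-2.47).

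Of 23 cytochrome P450 genes 10 rose and 3 fell. CYP84A4, of arabidopyrone synthesis, was between 33.4 and 47.3 without CHX and between 3291 and 4002 with it (5.93 ± 0.09 (SE, limma adjusted p 1.29e-18)), and CYP71B26 was between 443 and 544 without CHX and between 33.1 and 80.6 with it (-2.80). Of 29 serine carboxypeptidase-like genes 10 rose and 8 fell, with scpl30 at between 9.88 and 32.6 without CHX and between 1237 and 1575 with it (5.25) and scpl50 at between 325 and 382 without CHX and between 63.1 and 74.3 with it (-2.18). Of 36 genes of the MATE transporter list 15 rose and 10 fell, and the neighbours AT2G04050 and AT2G04070 changed by 8.33 and 7.72. Of 55 class III peroxidase genes 22 rose and 20 fell, from -4.25 for AT2G37130 to 7.98 for AT1G14550. Of 14 SWEET sugar transporter genes 4 rose and 1 fell, SWEET14 changing by 3.57 and SWEET17 by -1.02.

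Smaller hormone and cell identity lists were thinly covered by probe sets with 1 gene name. So were several lists above, with 7 of 36 listed loci measured for WRKY factors, 13 of 43 for rapid stress and 9 of 51 for the proteasome. For large-subunit ribosomal proteins it was 76 of 123. The ethylene transcription factor EIN3 was between 1192 and 1389 without CHX and between 749.9 and 865 with it (-0.66 ± 0.07 (SE, limma adjusted p 2.01e-07)). Of 6 cytokinin response regulators 1 rose, ARR15, at between 2.15 and 22.3 without CHX and between 61.0 and 83.7 with it (1.79), and none fell. Of 4 YUCCA auxin synthesis genes 1 rose, YUC6 at 1.05, with arrays that overlapped. Of 4 root hair genes 3 fell, among them EXPA18 at between 856 and 972 without CHX and between 423 and 616 with it (-0.85), and the receptor kinase GSO1 rose by 1.24.

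Some transcripts changed between near silence and a clear signal. Of the 22746 probe sets tested, 319 were under 50 on all 4 arrays without CHX and above 200 on all 4 with it. Of these, 192 carried 1 gene name. In roots without auxin 312 probe sets met the same limits, 226 of them among the 319. The reverse was found for 83 probe sets, 40 with 1 gene name. Without auxin the reverse was found for 113, of which 41 were among the 83. AT3G01830 stood at 24.9 and 33.0 with NAA, 22.2 and 19.4 with NAA+DEX, 8028 and 8943 with NAA+CHX, and 8659.8 and 8408 with NAA+DEX+CHX. AT5G57785 stood at 2092 and 1728 with NAA, 1528 and 1647 with NAA+DEX, 23.8 and 17.0 with NAA+CHX, and 11.0 and 34.8 with NAA+DEX+CHX. With a limit of 25 in place of 50 the counts were 124 and 15.

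The auxin response with and without CHX was read on arrays other than those that chose the genes. On the 4 arrays with DEX and without CHX, 812 probe sets were called higher with NAA by at least 2-fold, out of 6308 called in either direction (27.7%). On the arrays without DEX, 493 of these 812 (60.7%) were lower in NAA+CHX than in NAA and 202 (24.9%) were higher, where 31.6% and 25.1% of all probe sets were called lower and higher. Their median CHX change was -0.91, against -0.03 for all probe sets. The median NAA change of the same 812 was 1.36 without CHX and 0.07 with it, and 604 (74.4%) exceeded 2-fold without CHX against 22 (2.71%) with it. With the choice and the readout exchanged between the DEX states, 442 of 798 were lower with CHX and 227 higher (median -0.72), where 31.6% and 25.5% of all probe sets were.

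The 1140 probe sets that NAA lowered at least 2-fold on the DEX arrays behaved less uniformly. With CHX 457 (40.1%) were higher and 326 (28.6%) lower in roots without DEX (median 0.17). Of all probe sets 25.1% were higher and 31.6% lower there, so the share that fell was near that of all. With choice and readout exchanged, 403 of 970 (41.5%) were higher and 269 (27.7%) lower (median 0.26), where 25.5% and 31.6% of all were. The values that follow are again for the 1140 read in roots without DEX. Their median NAA change was -1.26 without CHX and -0.17 with it. Across all probe sets NAA called 6008 (26.4%) in roots without DEX or CHX and 293 (1.29%) in CHX-treated roots without DEX, and 2788 passed an unadjusted p of 0.05 in the latter.

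The primary auxin genes had different fates. GH3.3, an enzyme that joins auxin to amino acids, stood at 21503 and 23063 with NAA, 24707 and 23031 with NAA+DEX, 10276 and 9493 with NAA+CHX, and 10771 and 8340.3 with NAA+DEX+CHX, a change of -1.25 ± 0.09 (SE, limma adjusted p 8.41e-10). Without NAA it stood at 40.7 and 57.6 with mock, 59.8 and 58.5 with DEX, 3923 and 4212 with CHX, and 3992 and 4205 with DEX+CHX. CHX alone thus raised GH3.3 (5.88) and took it down in the presence of auxin, and the difference between these CHX changes was -7.13 ± 0.12 (SE, limma adjusted p 1.35e-15). GH3.1 was between 2546 and 3271 without CHX and between 2064 and 2397 with it (-0.40), WES1, also known as GH3.5, was between 12323 and 15319 without CHX and between 2130.4 and 2428 with it (-2.62), and GH3.17 was between 2614 and 2827 without CHX and between 699 and 803 with it (-1.79). GH3.9, near background without CHX, rose by 1.57.

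IAA29, an Aux/IAA repressor, stood at 2740.3 and 3192 with NAA, 2726 and 2658 with NAA+DEX, 256 and 227 with NAA+CHX, and 263 and 249.8 with NAA+DEX+CHX, a change of -3.42 ± 0.12 (SE, limma adjusted p 9.29e-14). IAA30 stood at 1444 and 1531 with NAA, 1418 and 1589.6 with NAA+DEX, 1825 and 1961 with NAA+CHX, and 2215 and 1815 with NAA+DEX+CHX, and rose by 0.38 ± 0.09 (SE, limma adjusted p 0.00121). The arrays of IAA29 and of IAA30 were fully apart, in opposite directions. IAA18 changed by -1.61, IAA33 by -1.03, IAA20 by 0.61 and IAA34 by 1.11, and IAA31 was not called (-0.10). Of the 7 measured Aux/IAA genes 3 rose and 3 fell.

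LBD29, a LOB-domain factor that acts in lateral root initiation, stood at 4348 and 4995 with NAA, 4623 and 4803 with NAA+DEX, 748 and 602 with NAA+CHX, and 643 and 758 with NAA+DEX+CHX, a change of -2.75 ± 0.12 (SE, limma adjusted p 8.94e-13). LBD16 of the same family was between 765 and 1441 without CHX and between 588 and 927 with it, and its arrays overlapped (-0.51 ± 0.11 (SE, limma adjusted p 3.92e-04)). PUCHI stood at 1696 and 1845 with NAA, 1916 and 1756 with NAA+DEX, 456 and 411 with NAA+CHX, and 339 and 431 with NAA+DEX+CHX, a change of -2.10 ± 0.10 (SE, limma adjusted p 2.71e-12). Transcripts of the transgene and of the mutated locus cannot be told apart by this probe set. BBM, an AP2 factor of embryo and root meristems, rose (0.74), and the receptor kinase CR4 fell (-0.88).

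**Figure D4:**
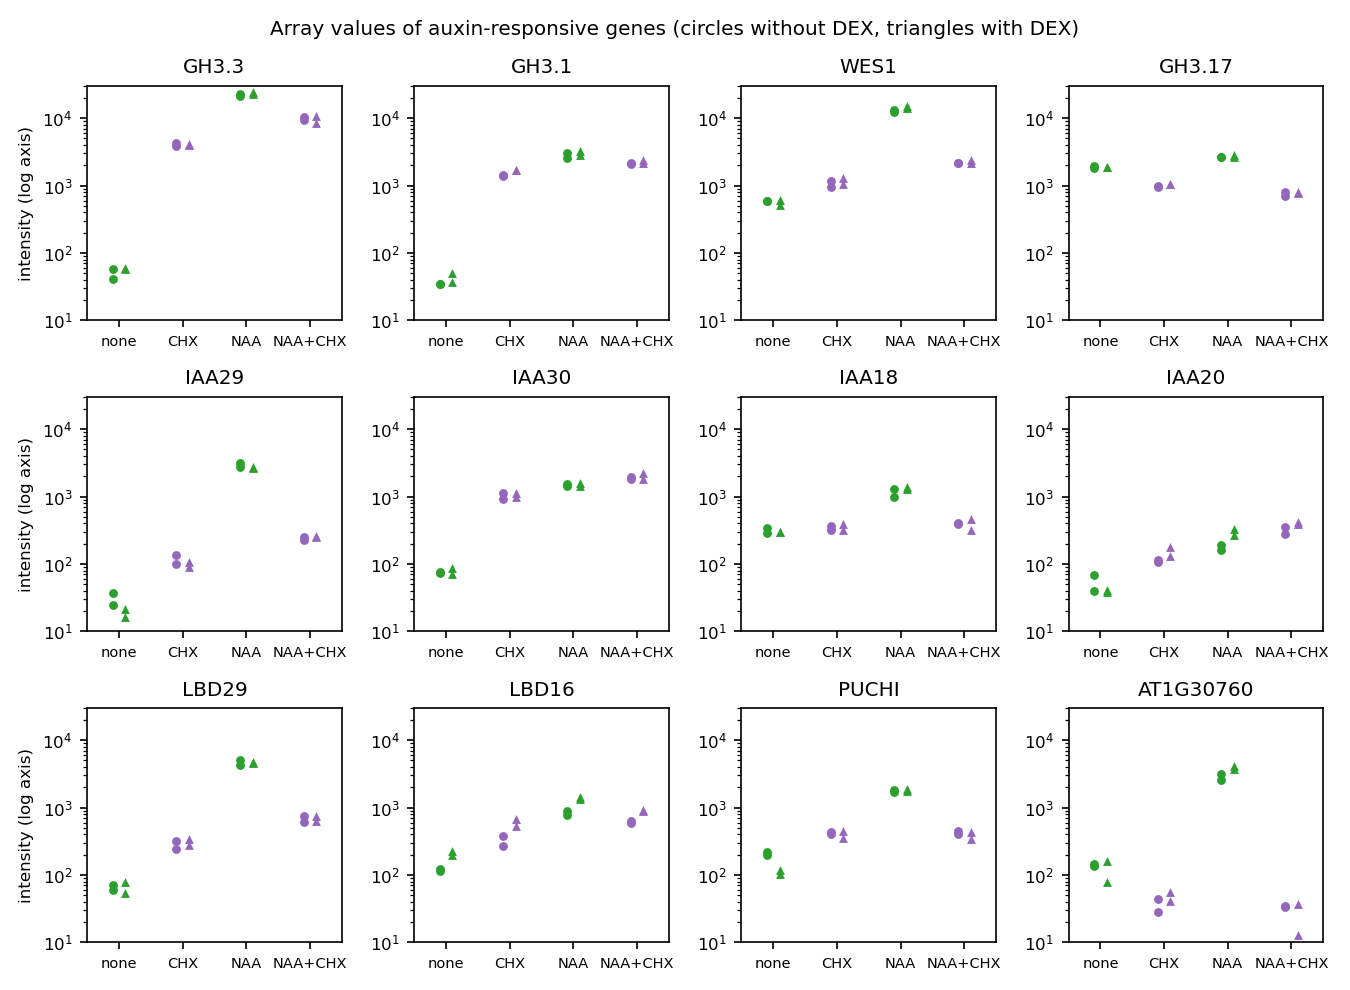
Intensities on a log axis of 12 auxin-responsive genes on all 16 arrays, in 4 states on the x axis (neither NAA nor CHX, CHX, NAA, and both), green without CHX and purple with it, circles without DEX and triangles with DEX. GH3.3, GH3.1, IAA30, LBD29, IAA29 and PUCHI all rose with CHX alone (changes of 5.88, 4.85, 3.49, 1.93, 1.62 and 1.33). With both agents GH3.3, GH3.1, LBD29, IAA29 and PUCHI were below their NAA level (changes of -1.25, -0.40, -2.75, -3.42 and -2.10), and IAA30 was above its own.

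Most of the CHX calls were also made in roots without auxin. The 8 arrays without NAA, whose values do not enter the CHX change with auxin but share its estimate of spread, gave 6701 rises (29.5%) and 7824 falls (34.4%), 63.9% in all. Of the 6627 rises with auxin 5350 (80.7%) were rises without it, which is 79.8% of those, and of the 7994 falls 6602 (82.6%) were falls without it, 84.4% of those. Opposite calls were made for 218 rises and 263 falls. The changes correlated across the 22746 probe sets at 0.908, as a description, since all arrays share the platform and probe sets are not independent.

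The difference between the CHX changes with and without auxin was called for 5527 probe sets (24.3%), 2685 (11.8%) more positive and 2842 (12.5%) more negative with auxin, and for 870 and 787 of these it was at least 2-fold. Among named genes, and beside those of the GH3, IAA and LBD families, the most negative were AT4G37295 and AT1G30760. AT1G30760 stood at 3146 and 2593 with NAA, 4148 and 3789 with NAA+DEX, 34.1 and 33.1 with NAA+CHX, and 36.7 and 12.8 with NAA+DEX+CHX. On the arrays without NAA it was at 135 and 145 with mock, 77.8 and 159.6 with DEX, 44.7 and 27.9 with CHX, and 41.2 and 55.6 with DEX+CHX. The differences between the CHX changes with and without auxin were -5.03 ± 0.15 (SE, limma adjusted p 1.02e-12) for AT4G37295 and -4.97 ± 0.29 (SE, limma adjusted p 1.85e-09) for AT1G30760. The most positive of a named gene was AT4G30450, at 5.21 ± 0.20 (SE, limma adjusted p 1.65e-11). It was between 2357 and 2568 on the mock and DEX arrays, and between 41.3 and 59.3 without CHX and between 45.8 and 54.0 with it in the auxin-treated roots.

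**Figure D5:**
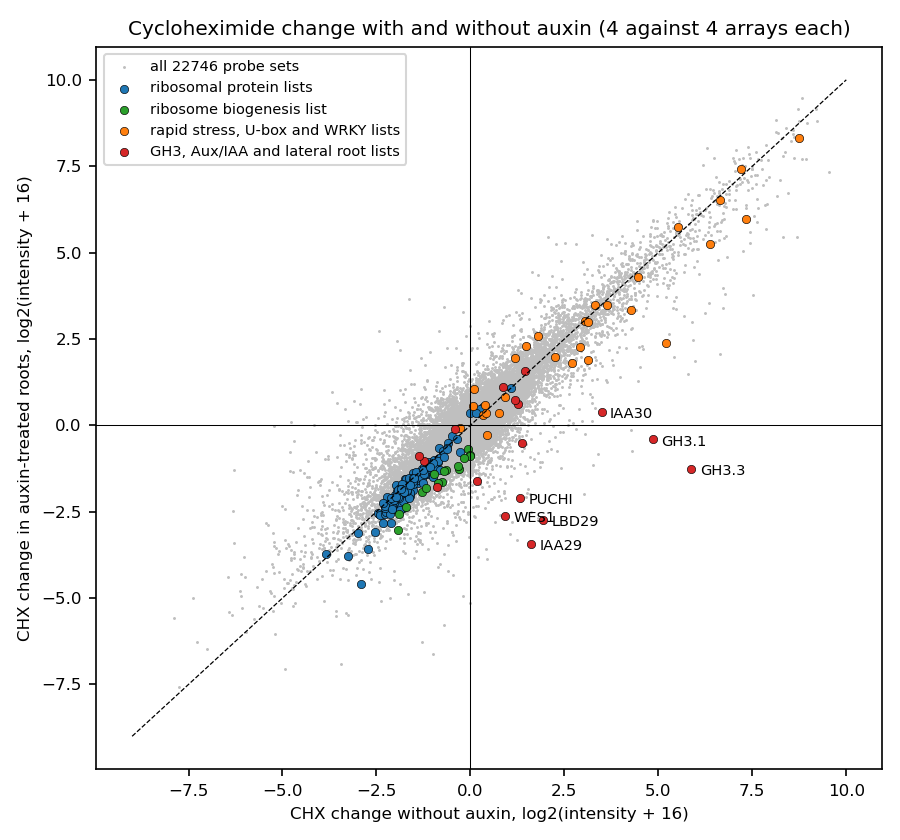
CHX change in auxin-treated roots (y axis) against CHX change without auxin (x axis), each 4 against 4 arrays on the log2(intensity + 16) scale, for all 22746 probe sets (grey) and for members of gene lists (colours), with the dashed line marking equal change. GH3.3, at 5.88 without auxin and -1.25 with it, lies farthest below the line, and most ribosomal proteins lie near it, with some below it.

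Few differences in the CHX response were called between the DEX states. Without DEX 5710 probe sets rose and 7190 fell, and with DEX 5799 rose and 7196 fell. Of the rises, 4961 were shared (86.9% of those without DEX and 85.5% of those with it), and of the falls 6464 (89.9% and 89.8%). The test of the difference itself called 5 probe sets (0.022%), 3 more positive and 2 more negative with DEX, while 1630 had an unadjusted p under 0.05. This difference is less precise than the CHX change (SE 0.193 against 0.096 for AT1G03820), and its recovery was not simulated. The few calls therefore do not show that the DEX states responded alike. HRGP1, a hydroxyproline-rich glycoprotein gene, is one of the 5: it stood at 1252 and 1384 with NAA, 989 and 1224 with NAA+DEX, 387 and 389 with NAA+CHX, and 613 and 673 with NAA+DEX+CHX, with changes of -1.72 without DEX and -0.76 with it. Its probe set is marked as one that may bind other transcripts too, and its call was lost when any of 7 of the 8 auxin-treated arrays was dropped (limma adjusted p 0.0946 to 0.203). In such fits 0 to 4 probe sets were called more positive and 0 to 2 more negative.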

How the data were processed

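Total RNA of 16 root samples was labelled as biotinylated cRNA and hybridised to 1 Affymetrix 3′ array each. The deposited intensities are linear and were made with Affymetrix Expression Console 1.3, per the submitters' processing notes. The probe summarisation method is not given in these sources. Leaving off 2% at each end, the mean was 500 on every array. Control probe sets (64 of 22810) were left out. Of the 22746 tested, 13513 carried 1 gene, 503 several and 8730 none in the platform annotation, whose symbols were updated through TAIR10.1. Names come from probe sets with 1 gene, and the brightest probe set stands for a gene.

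Values of log2(intensity + 16) were fitted in limma 3.58.1 (R 4.3.3) with a variance trend over all 16 arrays and 8 group means (8 residual degrees of freedom). Contrasts averaged the CHX effect over the DEX states. Simulated data had 200 changed probe sets of 22746, far fewer than the 64.3% called here, so recovery in the real data may differ. On the simulated data this comparison recovered 45.2%, 82.7% and 100% of changes of 0.5, 1 and 2 with 4.74% false calls, and the CHX by NAA difference 20.6%, 62.7% and 97.2% with 6.45%, above the nominal 5%. The number of arrays limits the precision. Genes were named by a rule: the 15 largest separated rises and falls, up to 4 called members per list and direction, the 5 largest CHX by NAA differences each way, and the brightest genes switched on or off. Members and lists were chosen with earlier results of these data known. Same-numbered arrays of different groups had deviations that correlated at -0.05 to 0.06 over 28 pairs of groups, so numbers were not used as pairs. Alternatives were pseudocounts of 1 and 64, quantile normalization, the brightest 60% of probe sets, no variance trend, only the 8 compared arrays, a replicate block, and leaving out each array.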

Additional observations from a re-analysis of the deposited data

Results flagged for a closer look

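The CHX change differed between auxin-treated and untreated roots, by the limma interaction test, for 5527 probe sets. The difference, on the log2(intensity + 16) scale with negative values meaning a lower CHX change with auxin, was -7.13 for GH3.3, -5.25 for GH3.1, -3.55 for WES1 and -0.90 for GH3.17. It was -5.05 for IAA29, -3.12 for IAA30, -1.80 for IAA18 and -0.64 for IAA20. It was -4.68 for LBD29, -1.89 for LBD16 and -3.43 for PUCHI. The other named genes were AT4G37295 at -5.03 and AT1G30760 at -4.97 on the negative side, and AT4G30450 at 5.21, AT2G34610 at 4.65, AT1G19900 at 4.42, AT3G45680 at 4.25 and AT4G30460 at 4.18 on the positive side. All 5 of the latter were at 427 or more on every mock and DEX array and at 61.2 or less on every NAA and NAA+DEX array.

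The CHX change differed between the DEX states for 5 probe sets, by the same kind of test. The differences (with DEX minus without) were 0.96 for HRGP1 and 2.86 for AT2G04020, and 1.77, -1.81 and -0.84 for 3 probe sets without a gene name here. AT2G04020 stood at 30.3 and 30.2 with NAA, 3.91 and 4.97 with NAA+DEX, 1.65 and 3.25 with NAA+CHX, and 47.0 and 39.8 with NAA+DEX+CHX, all of them near background. The calls of HRGP1 and AT2G04020 each ended in fits that left out 1 array, as given under the processing alternatives.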

How the results depend on the processing

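The counts of CHX rises and falls in auxin-treated roots kept within 1.5 times of the reported ones under every alternative, with 6222 to 6545 rises and 7687 to 7852 falls when 1 array was left out. Under quantile normalization the median over all probe sets went from -0.01 to -0.11 and the share of rises among calls from 45.3% to 42.1%. Keeping the brightest 60% of probe sets, which removes dim ones, gave a median of -0.23 and 41.4%. With the replicate number as a block, 6625 rose and 7983 fell, and the block ended no call of a named gene; the numbers share no pairing that the data show. The counts that moved were those of the difference between DEX states, 0 to 4 more positive and 0 to 2 more negative when 1 array was left out, and the switched probe sets at the limit of 25, 124 on and 15 off. The call of HRGP1 in that difference was lost without any of 7 of the 8 auxin-treated arrays (limma adjusted p 0.0946 to 0.203) and that of AT2G04020 in all 8 (0.067 to 0.203). The IAA20 difference between roots with and without auxin lost its call with a pseudocount of 64 (-0.31), under quantile normalization (-0.53) and in 10 of 16 fits without 1 array (-0.49 to -0.66).

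Values that turned sign were all of uncalled results near 0, and the cause was not tested. The CHX change of AT2G04020 (0.11) was -0.093 with a pseudocount of 1 and -0.073 under quantile normalization, and that of AT4G30450 (-0.02) ranged from -0.054 to 0.014 without 1 array. The differences by auxin of GH3.9 (0.11) and IAA33 (0.19) were -0.00033 and -0.21 with a pseudocount of 1. With 1 array left out they ranged from -0.061 to 0.289 and from -0.13 to 0.516, and that of IAA34 (0.25) from -0.055 to 0.547. Dim genes limit what can be said: many of the largest rises start within the spread of background values, and their size depends on the pseudocount. At the upper end, 26 to 35 probe sets per auxin-treated array without CHX and 40 to 51 with it exceeded an intensity of 20000, and a ceiling there was not tested.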
